A study of Homo sapiens with 6 samples.

Results

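DEAD and DEAH box proteins are RNA helicases, enzymes that use ATP to unwind short RNA duplexes, to strip proteins from RNA or to clamp onto it, and they are named after a short amino acid motif of their ATPase core. They act at almost every step of RNA metabolism: splicing, ribosome assembly, export of mRNA from the nucleus, initiation of translation, mRNA decay and the sensing of foreign RNA. Symbols that start with DDX name the DEAD box members and those that start with DHX the DEAH box members, and some carry the name of the family although their known substrate is DNA.

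The helicases were taken as every probe set whose single gene symbol in the platform annotation starts with DDX or DHX and a digit, with DDX3Y not analysed here. This gave 124 probe sets of 55 genes, out of 54613 probe sets that are not array controls. Of the 55 genes, 50 code for proteins. The other 5 are DDX11L2, a pseudogene, and the antisense or divergent transcripts DHX9-AS1, DDX11-AS1, DDX19A-DT and DDX59-AS1. DDX39B, DDX18, DDX47, DDX58 and DDX12P had no probe set with a single symbol under those names and are not analysed here.

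The RNA came from a human kidney cell line that the labels leave unnamed. Its cells had been transfected with hIMP1 Dmut, with hIMP1 wt or with an empty vector (mock), with 2 arrays in each of the 3 groups. hIMP1 is the human form of IMP1, an mRNA-binding protein of cytoplasmic granules encoded by IGF2BP1. The meaning of Dmut, the time after transfection and whether the arrays of a group came from separate cultures are not in the labels. P-values therefore measure only how far the arrays of a group differ, which may reflect technical spread. The sample titles give each array of a group a number, 1 or 2, and helicase values were also compared between these numbers. Each value is an intensity, the brightness of a probe set on a linear scale in arbitrary units. Intensities of different probe sets are not compared with each other, since probes differ in affinity.

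Of the 124 probe sets, 97, of 45 genes, had a mean log2 value at or above the median of all probe sets and were tested, among 27307 probe sets tested in all. The 27 others lay between 0.312 and 41.5 on the 6 arrays, and on each array 24 to 27 of them were below the median intensity of that array. Genes with none of their probe sets among the 97 were the germ line helicases DDX4, DDX25, DDX43 and DDX53, the interferon-linked DHX58 and DDX60L, DDX19B, DDX11-AS1, DDX19A-DT and DDX59-AS1. DDX4, the Vasa protein of germ cells, had 3.13 and 0.968 with hIMP1 Dmut, 1.65 and 3.18 with hIMP1 wt, and 7.82 and 3.49 in mock, giving in each pair the array numbered 2 and then the array numbered 1, an order kept for all pairs below. DHX58, also known as LGP2, a regulator of antiviral RNA sensors, had 2.12 to 3.37 over all 6 arrays. With no detection calls used, these low intensities do not show whether the genes were transcribed.

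The promoters of 3 genes that the comparisons turn on are shown first. DDX39A had the lowest p of the helicases between hIMP1 Dmut and mock, and DHX34 and DDX17 hold the helicase probe sets with the lowest adjusted p between the array numbers. Each line gives the 250 bases before the first listed transcript start, from RefSeq on GRCh38.p14, read 5′ to 3′ along the gene, with the motifs CCAAT and GGGCGG on either strand in capitals.
DDX39A, chr19:14419384-14419633, minus strand: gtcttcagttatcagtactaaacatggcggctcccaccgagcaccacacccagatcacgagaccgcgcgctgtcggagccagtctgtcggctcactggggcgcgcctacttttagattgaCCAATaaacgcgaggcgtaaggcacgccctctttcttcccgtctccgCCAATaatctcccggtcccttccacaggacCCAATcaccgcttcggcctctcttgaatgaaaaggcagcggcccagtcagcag
DHX34, chr19:47349065-47349314, plus strand: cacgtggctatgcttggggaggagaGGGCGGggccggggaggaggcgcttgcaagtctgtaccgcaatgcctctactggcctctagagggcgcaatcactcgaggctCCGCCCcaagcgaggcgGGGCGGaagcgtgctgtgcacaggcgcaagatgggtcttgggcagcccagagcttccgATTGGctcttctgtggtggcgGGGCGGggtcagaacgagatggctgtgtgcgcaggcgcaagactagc
DDX17, chr22:38506312-38506561, minus strand: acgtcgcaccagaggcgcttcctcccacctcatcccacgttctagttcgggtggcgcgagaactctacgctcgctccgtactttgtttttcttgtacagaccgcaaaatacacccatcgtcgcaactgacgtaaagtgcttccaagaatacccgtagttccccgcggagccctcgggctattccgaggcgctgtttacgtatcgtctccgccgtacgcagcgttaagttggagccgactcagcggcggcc
The DDX39A stretch held 3 CCAAT motifs and no GGGCGG, the DHX34 stretch 4 GGGCGG and 1 CCAAT, and the DDX17 stretch neither. RefSeq lists 2 starts for DDX39A and 1 each for DHX34 and DDX17. A promoter entry was found for 50 of the 55 genes, with 65 entries in all. In the first listed stretch of each gene, CCAAT, read on both strands like the others, was in 46.0% of these helicase genes, against 33.0% of 27305 genes and 35.2% of the 10037 genes with a tested probe set. GGGCGG, the core of the binding motif of SP1, was in 56.0% of helicase genes, against 42.3% of all genes and 67.3% of genes with a tested probe set. CCGGAA, the core of the motif of ETS factors, was in 46.0% of helicase genes, 14.8% of all genes and 25.1% of genes with a tested probe set. TATAAA was in 1 of the 50 helicase genes (2.00%), against 11.1% and 5.15%. The 50 include genes without a tested probe set, so they are not a like set for the 10037 genes. Of the 41 helicase genes with a tested probe set, 17 held CCAAT, 26 GGGCGG, 19 CCGGAA and 1 TATAAA. Matches of different motifs may share end bases, and a match describes sequence only. Across genes, the median log2 difference between numbers was -0.08 in the 19 tested helicase genes with CCGGAA and -0.14 in the 22 without it. With and without CCAAT it was -0.06 and -0.14, and with and without GGGCGG -0.12 and -0.14. These differences by motif were not tested.

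For the array set as a whole, HSPA6, a stress-inducible heat shock gene, held the 2 probe sets past the adjusted threshold in each comparison with mock. The IGF2BP1 probe set 227377_at had 287.5 and 266.1 with hIMP1 Dmut and 326.5 and 226.1 with hIMP1 wt, against 306.9 and 230.5 in mock. A further IGF2BP1 probe set, 223689_at, had 150.5 and 247.7 with hIMP1 Dmut and 136.5 and 252.7 with hIMP1 wt, against 93.2 and 188.1 in mock (adjusted p = 1.00 for both, limma). Whether these probe sets match the stretch carried by the constructs is not given in the sources used here, so they check no label. Arrays with the same number correlated at 0.970 to 0.980 over the tested probe sets, and arrays of the same group at 0.963 to 0.964. No 2 arrays held identical values. Among markers of other cell types, blood genes (3 of the 6 measured were bright enough to test) summed to 341.8 and 280.3 with hIMP1 Dmut and 199.7 and 343.5 with hIMP1 wt, against 202.1 and 365.7 in mock.

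No helicase probe set passed the adjusted threshold of 0.05 in any comparison of the transfections, by limma over all tested probe sets with Benjamini-Hochberg adjustment. With hIMP1 Dmut against mock, 0 of 97 helicase probe sets and 0.00732% of all tested probe sets passed, and at an unadjusted p under 0.05 these shares were 3 of 97 (3.09%) and 1.42%. With hIMP1 wt against mock, 0 of 97 and again 0.00732% of all probe sets passed, and 2 of 97 (2.06%) and 1.03% without adjustment. With hIMP1 Dmut against hIMP1 wt, 0 of 97 and 0% of all passed, and 0 of 97 and 1.23% without adjustment. The median log2 change of the 97 was 0.03 with hIMP1 Dmut and 0.05 with hIMP1 wt relative to mock, beside 0.01 and -0.01 over all tested probe sets. Between hIMP1 Dmut and hIMP1 wt it was -0.02, beside 0.02 over all. The comparisons with mock share the mock arrays.

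**Figure D1:**
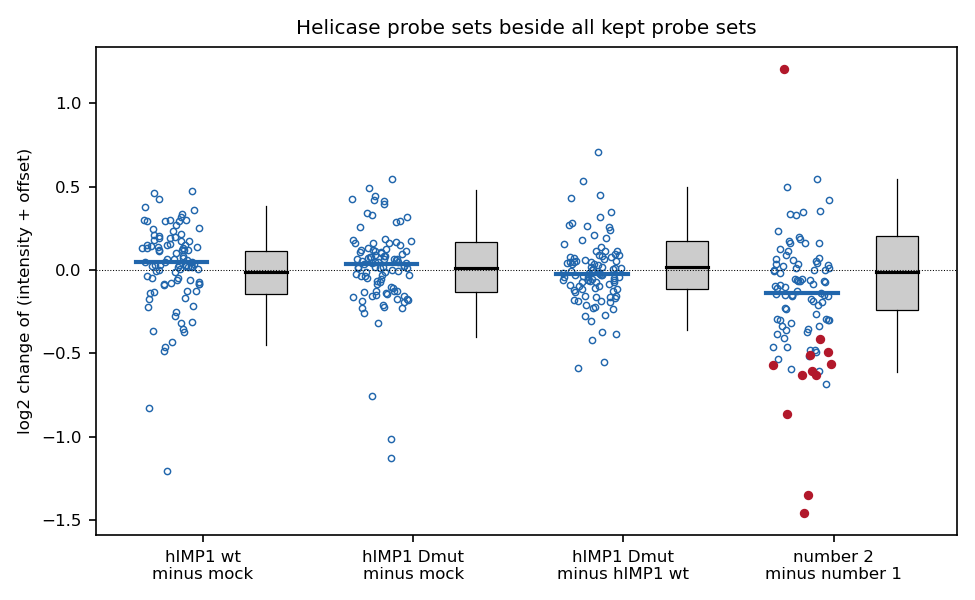
Log2 change of each of the 97 helicase probe sets (circles, with filled red ones past adjusted p 0.05) in the 4 comparisons, with the helicase median as a blue line. The grey box beside each spans the quartiles of all 27307 tested probe sets, its line the median and its whiskers the 5th and 95th percentiles. Helicase points lie mostly inside the whiskers in the 3 comparisons of transfections, and the median of -0.14 sits below the box line in the comparison of numbers.

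These arrays could not show small changes. The 95% interval of a helicase log2 change had a median half-width of 0.53, and the whole interval lay within 1 log2 unit of 0 for 79 of 97 probe sets with hIMP1 Dmut against mock, 79 with hIMP1 wt against mock and 81 between the constructs. In simulated data of the comparison of hIMP1 Dmut with mock over 27307 probe sets, of which 200 were changed, 0% of log2 changes of size 0.5 were recovered, 42.3% of those of size 1 and 96.1% of those of size 2. The simulated noise came from the fit with group and number, and no difference between the numbers was simulated. The fit of the transfections had no term for the number, so these shares may be too high for the real arrays. The adjusted threshold is also easier to pass when many probe sets change, and only 2 of 27307 passed in the real comparison. In the simulations most changes of 1 log2 unit or less were missed. On the real arrays larger ones may be missed as well, and a miss is no evidence of equal levels.

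DDX39A, a helicase of mRNA export and splicing closely related to DDX39B, had the lowest unadjusted p of the 97 probe sets in the comparison of hIMP1 Dmut with mock. Its single tested probe set, 201584_s_at, had intensities of 1710.3 and 1775 with hIMP1 Dmut and 2506 and 1771 with hIMP1 wt, against 3104 and 2812 in mock. All 4 construct arrays were below both mock arrays, and the hIMP1 wt array numbered 2 was nearest to them. The mean was 1743 ± 46.0 with hIMP1 Dmut, 2139 ± 520 with hIMP1 wt and 2958 ± 207 in mock (SD, n = 2 each). On the log2 scale the difference was -0.76 ± 0.19 (SE, unadjusted p = 0.00292, adjusted p = 1.00, limma) with hIMP1 Dmut, or 1.69-fold lower, with a 95% interval of -1.19 to -0.33. With hIMP1 wt it was -0.49 ± 0.19 (unadjusted p = 0.0313, adjusted p = 1.00, limma), with an interval of -0.92 to -0.05. Between hIMP1 Dmut and hIMP1 wt the difference was -0.27 with an interval of -0.71 to 0.16. Within the arrays numbered 2 the difference of hIMP1 Dmut from mock was -0.86, and within those numbered 1 it was -0.66. Leaving out any one array kept the log2 difference of hIMP1 Dmut from mock between -0.83 and -0.69. With hIMP1 wt it was -0.74 without the hIMP1 wt array numbered 2 and -0.24 without that numbered 1. For hIMP1 Dmut against mock, the smallest adjusted p under the alternatives tried was 0.887. DDX39A thus did not pass the test over all probe sets, under any of them.

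**Figure D2:**
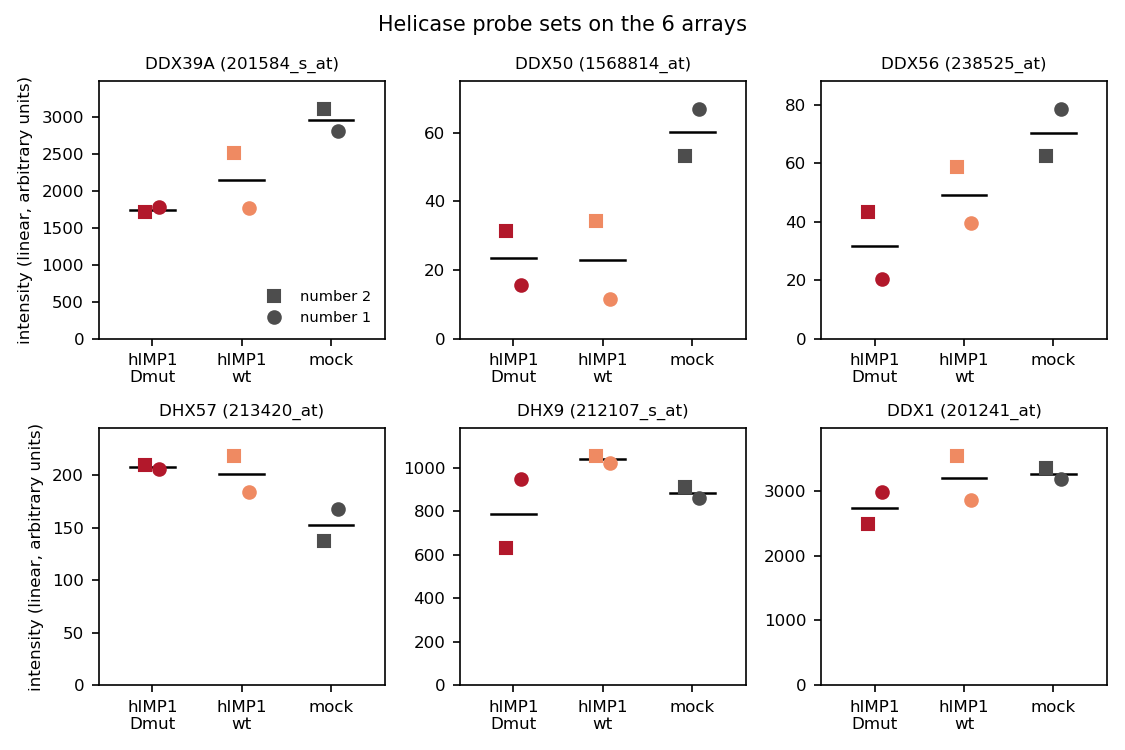
Intensity (linear axis from 0) of 6 helicase probe sets on each array, with squares for arrays numbered 2, circles for arrays numbered 1 and a line at the mean of each group. All construct arrays of DDX39A (1710.3 to 2506) lie below mock (2812 and 3104), those of DHX57 lie above it, and DHX9 and DDX1 have their lowest value on the hIMP1 Dmut array numbered 2.

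The other probe sets under an unadjusted p of 0.05 in these comparisons were dim ones of nucleolar helicases, and they are named here after their values were seen. DDX50 probe set 1568814_at had 31.3 and 15.6 with hIMP1 Dmut and 34.2 and 11.6 with hIMP1 wt, against 53.3 and 66.9 in mock. Its log2 difference from mock was -1.13 ± 0.46 with hIMP1 Dmut and -1.21 ± 0.46 with hIMP1 wt (SE, unadjusted p = 0.0358 and 0.0267, adjusted p = 1.00 for both, limma). These values moved with single arrays: without the array numbered 2 of the construct they were -1.48 with hIMP1 Dmut and -1.74 with hIMP1 wt, and without that numbered 1 they were -0.77 and -0.67. DDX50 is a paralogue of the nucleolar helicase DDX21, and its probe set 221699_s_at did not share the difference, at -0.13 with hIMP1 Dmut and 0.03 with hIMP1 wt. The remaining DDX50 probe set, 1568815_a_at, stood at 0.04 and 0.06. DDX56 probe set 238525_at, of a nucleolar helicase of large ribosomal subunit assembly, had 43.2 and 20.3 with hIMP1 Dmut and 58.7 and 39.6 with hIMP1 wt, against 62.3 and 78.5 in mock. Its log2 difference was -1.01 ± 0.39 with hIMP1 Dmut (unadjusted p = 0.0254, adjusted p = 1.00, limma), and was -1.43 without the hIMP1 Dmut array numbered 2 and -0.60 without that numbered 1. DDX56 probe set 217754_at stood at -0.09. For both genes the probe sets of the same gene thus gave different values.

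The share of helicase probe sets whose groups did not overlap was near or below that of all tested probe sets in most comparisons. Both hIMP1 Dmut arrays lay above both mock arrays for 9 of 97 helicase probe sets (9.28%, against 12.6% of all tested) and below them for 7 (7.22%, against 11% of all). Both hIMP1 wt arrays lay above mock for 11 (11.3%, against 9.72% of all) and below it for 10 (10.3%, against 11.6% of all). Both hIMP1 Dmut arrays lay above both hIMP1 wt arrays for 4 (4.12%, against 13.1% of all) and below them for 8 (8.25%, against 8.89% of all). All 4 construct arrays lay above both mock arrays for 4 (4.12%, against 3.9% of all), which were of DDX52, DHX57, DDX54 and DHX35, and below them for 6 (6.19%, against 3.86% of all), which were of DDX50, DHX15, DDX39A, DDX11, DDX17 and DDX56.

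Taking the brightest tested probe set of each gene, DHX57 and DHX35 were among the 3 highest helicase genes by limma's moderated statistic with each construct, and neither passed the threshold. DHX57 probe set 213420_at had 209.6 and 205.9 with hIMP1 Dmut and 218.7 and 183.6 with hIMP1 wt, against 137.4 and 168.2 in mock. The log2 difference was 0.43 ± 0.23 with hIMP1 Dmut and 0.38 ± 0.23 with hIMP1 wt (SE, unadjusted p = 0.0895 and 0.127, adjusted p = 1.00 for both, limma). Its other probe set 244784_at stood at 0.33 and 0.34. DHX35, which associates with spliceosomes, had 76.1 and 121.8 with hIMP1 Dmut and 105.3 and 96.1 with hIMP1 wt, against 72.2 and 67.5 in mock, on probe set 234728_s_at. The hIMP1 Dmut array numbered 2 was within 4 units of the higher mock array, and the log2 differences were 0.42 ± 0.30 and 0.48 ± 0.30 (SE, adjusted p = 1.00 for both, limma). The other tested DHX35 probe set, 218579_s_at, stood at 0.08 with hIMP1 Dmut and 0.46 with hIMP1 wt. Over all 97 probe sets the highest statistic with hIMP1 Dmut was that of DDX52 probe set 212834_at, which is not the brightest of its gene. It had 259.1 and 197.0 with hIMP1 Dmut and 181.7 and 213.5 with hIMP1 wt, against 149.5 and 167.6 in mock. Its log2 difference was 0.49 ± 0.24 with hIMP1 Dmut and 0.30 ± 0.24 with hIMP1 wt (SE, unadjusted p = 0.0637 and 0.231, adjusted p = 1.00 for both, limma). The other DDX52 probe sets did not share it, at 0.12 and 0.05 for 210320_s_at and -0.15 and -0.14 for 213637_at.

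By role, no probe set of any group passed the adjusted threshold in the comparisons with mock. Over all tested probe sets, 51.8% were higher with hIMP1 Dmut than in mock and 47.6% with hIMP1 wt. Among 24 probe sets of splicing helicases, 16 were higher with hIMP1 Dmut than in mock (median log2 change 0.03) and 14 were higher with hIMP1 wt (0.03). DHX15, which takes spent spliceosomes apart, stood at -0.14 with hIMP1 Dmut and -0.12 with hIMP1 wt on probe set 201385_at, and at 0.05 and 0.18 on 201386_s_at. DDX17, a partner of DDX5 in splicing and microRNA processing, stood at -0.21 and -0.17 on probe set 208718_at. There the construct arrays (3678 to 4359) all lay below mock (4416 and 4597). The other tested DDX17 probe sets were on both sides of 0, at -0.16 to 0.06 with hIMP1 Dmut and -0.43 to 0.29 with hIMP1 wt. DDX46 and DDX23, helicases of early spliceosome assembly, ranged from 0.01 to 0.09 with hIMP1 Dmut over their 4 probe sets.

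Among 34 probe sets of ribosome biogenesis and nucleolar helicases, 18 were higher with hIMP1 Dmut than in mock (median 0.01) and 19 were higher with hIMP1 wt (0.03). DDX21, a nucleolar helicase of rRNA transcription and processing, had 5160 and 6620 with hIMP1 Dmut and 5959 and 5672 with hIMP1 wt, against 5524 and 6075 in mock, on probe set 224654_at. Its log2 differences of 0.01 with hIMP1 Dmut and 0.01 with hIMP1 wt carried SEs of 0.18. In the 22 probe sets of helicases of translation, RNA granules and mRNA decay, 12 were higher with hIMP1 Dmut than in mock (median 0.01) and 15 with hIMP1 wt (0.13). DDX3X, which helps ribosomes through structured leaders of mRNAs, had means above mock with both constructs on all 4 tested probe sets. The log2 difference was 0.07 to 0.16 with hIMP1 Dmut and 0.13 to 0.32 with hIMP1 wt, with SEs of 0.17 to 0.27. With hIMP1 Dmut it changed sign between the numbers on each of the 4, as on 201210_at (0.30 within number 2, -0.16 within number 1). With hIMP1 wt it was above 0 within both numbers. The groups overlapped on all 4, which were read on the same arrays. DDX6, a component of P-bodies that represses translation, stood at -0.16 with hIMP1 Dmut and 0.02 with hIMP1 wt on probe set 225549_at. Its other tested probe set, 1562836_at, stood at 0.41 and 0.30.

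DHX9, also called RNA helicase A, is known from other studies as a partner of IMP1 in RNA-protein complexes, and its 3 tested probe sets were set between the constructs. Probe set 212107_s_at had 629.1 and 947.8 with hIMP1 Dmut, against 1055 and 1021 with hIMP1 wt, and 908.6 and 858.2 in mock. Probe set 202420_s_at had 857.9 and 963.0 with hIMP1 Dmut, against 1092 and 1044 with hIMP1 wt, and 900.2 and 935.7 in mock. In both, the 2 hIMP1 wt arrays were the highest of the 6 and the hIMP1 Dmut array numbered 2 the lowest. On the remaining probe set, 212105_s_at, the hIMP1 wt arrays overlapped both with those of hIMP1 Dmut and with mock. The log2 difference of hIMP1 Dmut from hIMP1 wt was -0.42 ± 0.21 on 212107_s_at (SE, unadjusted p = 0.0737, adjusted p = 1.00, limma), -0.23 on 202420_s_at and -0.27 on 212105_s_at. Within the arrays numbered 1 the 212107_s_at difference was -0.11, and within those numbered 2 it was -0.74. DDX1, a helicase of RNA granules and of tRNA ligation, had 2493 and 2976 with hIMP1 Dmut, against 3547 and 2856 with hIMP1 wt and 3347 and 3178 in mock. The difference of hIMP1 Dmut from hIMP1 wt was -0.22 ± 0.18 (SE, adjusted p = 1.00, limma), and the groups overlapped.

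**Figure D3:**
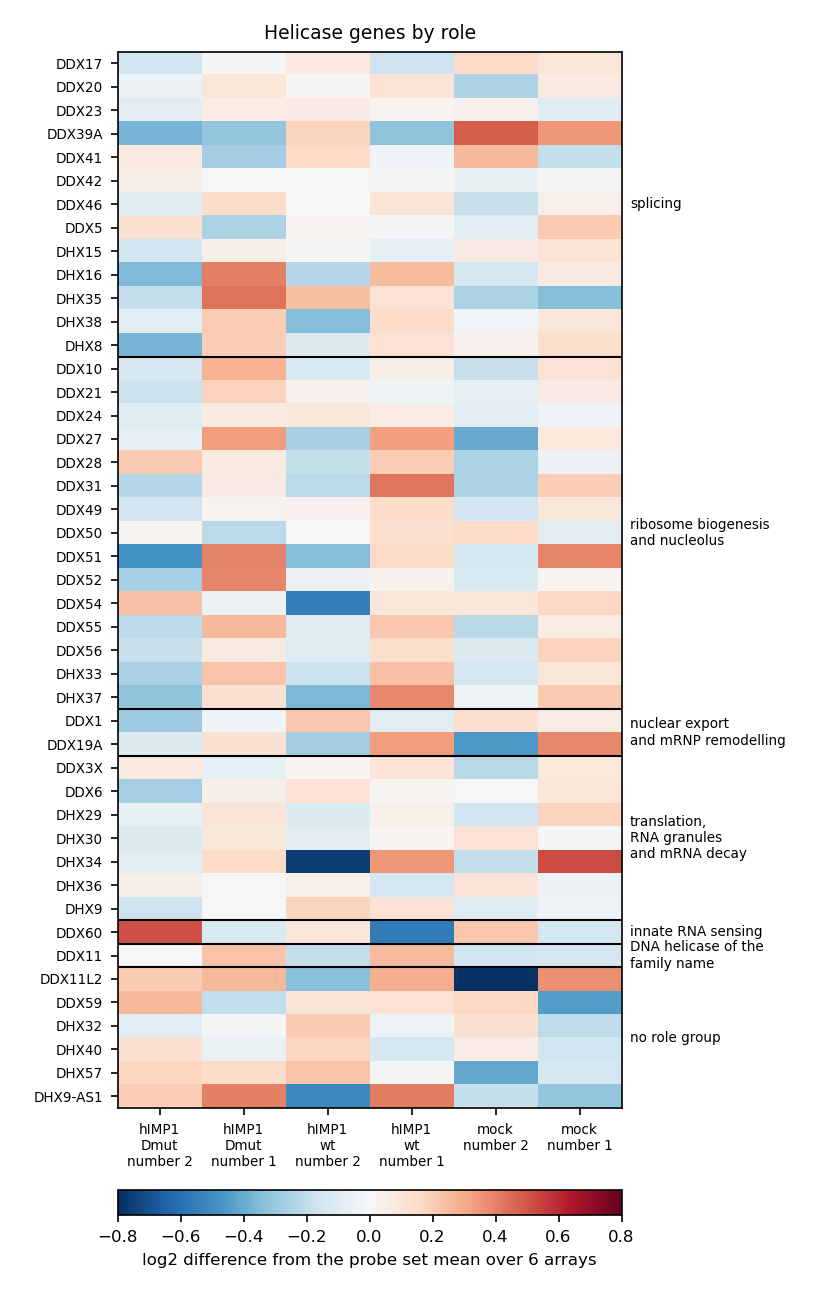
Log2 difference of each helicase gene from its own mean over the 6 arrays, with the brightest tested probe set of each gene, 1 row per gene in the first of its role groups and 1 column per array. The DDX39A row is high in both mock columns, and in the ribosome biogenesis block the columns numbered 2 are mostly blue and those numbered 1 mostly red.

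Helicase probe sets did pass the adjusted threshold between the array numbers, and most of these were lower on arrays numbered 2. Arrays numbered 2 were lower for 67 of the 97 helicase probe sets, with a median log2 change of -0.14, beside -0.01 over all tested probe sets. Of all 27307 tested probe sets 14156 were lower, the share to set beside the counts by role and list below. The helicase median was below 0 in every group, at -0.24 with hIMP1 Dmut, -0.10 with hIMP1 wt and -0.16 in mock, beside 0.03, -0.04 and -0.02 over all. By limma with group and number as additive terms, 12 helicase probe sets passed the adjusted threshold (12.4%, against 5.71% of all tested), of which 11 were lower on arrays numbered 2 (11.3%, against 2.9% of all) and 1 was higher (1.03%, against 2.81% of all). At an unadjusted p under 0.05 there were 31 of 97 (32%, against 22.3% of all), of which 26 were lower, beside 3131 lower among all 27307. In 43 probe sets the array numbered 2 was lower in each of the 3 groups (44.3%, against 22.2% of all), and in 7 it was higher in each (7.22%, against 21.2% of all).

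The 12 calls depended on the settings. There were 0 without the variance trend, where no probe set of any gene passed. Without the filter on dim probe sets there were 2 (1.61%, against 1.02% of all). Scaling the arrays to one median left 4 (4.12%, against 5.32% of all). Helicase probe sets had a smaller median SE than all tested ones (0.14 against 0.18). With the filter at the 75th percentile, which keeps only brighter probe sets, 12 of 68 passed (17.6%, against 11% of all). At an unadjusted p under 0.05 that filter gave 22 of 68, against 28.8% of all. The number of calls also changed when single arrays were left out, as did the share of all probe sets past the threshold. The lower median held up better: relative to the median of all tested probe sets it was -0.12, between -0.13 and -0.09 under the 9 other settings, and between -0.14 and -0.10 with an array left out. Scaling to one median moved the median of all probe sets by 0.10, and the helicase median to -0.03 with it.

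What the numbers stand for is not given in the labels. The signal of the 3′ over that of the 5′ control probe set for ACTB, a measure of RNA integrity, was 1.57 to 1.67 on arrays numbered 2 and 1.44 to 1.52 on those numbered 1. The same ratio for GAPDH overlapped, at 1.13 to 1.17 on arrays numbered 2 and 1.03 to 1.16 on those numbered 1. The embryonic kidney and neural marker list, of which 6 of 7 genes were measured and EYA1, INA and NEFL were bright enough to test, summed to 3364 to 3562 on arrays numbered 2 and 2479 to 2734 on those numbered 1. None of its measured genes was at 0. The part of these in the helicase differences was not tested, and in bulk RNA fewer cells of a type and less RNA per cell cannot be told apart.

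DHX34, a helicase of nonsense-mediated mRNA decay, had the largest fall of the 12. Probe set 204815_s_at had 37.9, 52.9 and 47.8 on the hIMP1 Dmut, hIMP1 wt and mock arrays numbered 2, against 164.6, 156.1 and 110.3 on those numbered 1. The values did not overlap, and the log2 change was -1.46 ± 0.22 (SE, adjusted p = 0.00579, limma), or 2.75-fold lower on arrays numbered 2. Its further probe set 214017_s_at changed by -0.68 and lay just outside the threshold (adjusted p = 0.0574, limma). DDX17 went the other way on a single probe set. Probe set 230180_at had 233.8, 207.1 and 271.7 on the hIMP1 Dmut, hIMP1 wt and mock arrays numbered 2, against 124.4, 71.0 and 103.5 on those numbered 1, a log2 change of 1.21 ± 0.17 (SE, adjusted p = 0.00431, limma). The other 4 tested DDX17 probe sets stood between -0.06 and 0.16, so this rise belongs to 1 of 5 probe sets of the gene. These 2 probe sets passed under every other setting in which they were tested except the fit without a variance trend.

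**Figure D4:**
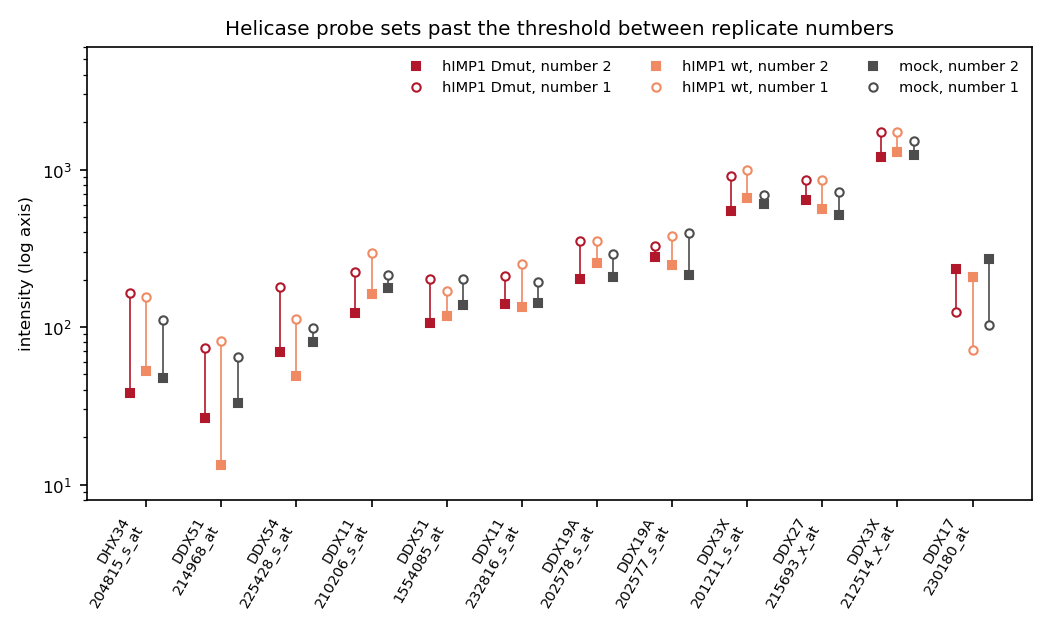
Intensity (log axis) of the 12 helicase probe sets past adjusted p 0.05 between the numbers, with filled squares for arrays numbered 2 and open circles for arrays numbered 1, joined within hIMP1 Dmut, hIMP1 wt and mock. The squares lie below the circles in all 3 groups for 11 probe sets and above them for DDX17 230180_at.

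Nucleolar helicases of ribosome biogenesis gave 4 of the 11 falls. With 34 of the 97 helicase probe sets, the group held about the number of falls that its size gives, which is no result about the group. In it, 27 of 34 probe sets were lower on arrays numbered 2 (median log2 change -0.21, beside -0.01 over all tested probe sets). DDX51, which is needed for maturation of large-subunit rRNA, fell on both tested probe sets. Probe set 214968_at had 26.4, 13.2 and 33.1 on the hIMP1 Dmut, hIMP1 wt and mock arrays numbered 2, against 73.2, 81.8 and 64.8 on those numbered 1 (log2 change -1.35 ± 0.31, adjusted p = 0.0295, limma). The other DDX51 probe set 1554085_at changed by -0.63 (adjusted p = 0.0462, limma). DDX27, a helicase of rRNA processing, had 645.5, 565.7 and 512.7 on arrays numbered 2, against 859.7, 857.3 and 721.5 on those numbered 1, in the same order of groups, on probe set 215693_x_at (log2 change -0.50 ± 0.11, adjusted p = 0.0296, limma). Its other probe set, 221780_s_at, stood at -0.02. DDX54 fell on probe set 225428_s_at by 0.86 on the log2 scale (adjusted p = 0.0471, limma), while 219111_s_at and 224433_s_at stood at -0.15 and -0.09. DHX33, also in this group, lay outside the threshold at -0.37 (adjusted p = 0.0688, limma).

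Among helicases of export, translation and decay, DDX19A, which releases mRNA from its export factor at the nuclear pore, fell on both tested probe sets. The log2 change was -0.57 ± 0.14 on 202578_s_at and -0.56 ± 0.15 on 202577_s_at (adjusted p = 0.0351 and 0.0461, limma). Probe set 202578_s_at had 202.4, 253.7 and 207.6 on the hIMP1 Dmut, hIMP1 wt and mock arrays numbered 2, against 353.9, 352.2 and 292.6 on those numbered 1. DDX3X fell on 2 of 4 tested probe sets, by 0.51 on 201211_s_at and 0.41 on 212514_x_at (adjusted p = 0.0412 and 0.0486, limma). The other DDX3X probe sets, 212515_s_at and 201210_at, stood at -0.34 and -0.08 and did not pass. Of the 22 probe sets of translation, granule and decay helicases 17 were lower on arrays numbered 2, with a median of -0.13. DDX11, a DNA helicase of sister chromatid cohesion, was lower on all 4 of its probe sets and fell on 210206_s_at and 232816_s_at, by 0.63 and 0.61 (adjusted p = 0.0450 and 0.0464, limma). DDX11 has near-identical copies in the genome, so its probe sets may read several of them.

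Splicing helicases were lower on arrays numbered 2 in 14 of 24 probe sets (median -0.06), and none passed the threshold downwards. DHX16, which activates the spliceosome for the first step of splicing, lay nearest to it, at -0.48 (adjusted p = 0.0508, limma). Its values were 454.3, 495.4 and 526.5 on the hIMP1 Dmut, hIMP1 wt and mock arrays numbered 2, against 771.2, 693.9 and 609.3 on those numbered 1, so the numbers did not overlap. The innate sensing helicases were lower in 6 of 10 probe sets and none passed. DDX60, an interferon-induced helicase, was higher on arrays numbered 2 in every group (68.0, 48.2 and 53.5, against 40.5, 27.5 and 39.9) and had a log2 difference of 0.55 ± 0.27 (SE, adjusted p = 0.255, limma). DDX41, a splicing factor also linked to DNA sensing, was higher by 0.33 (adjusted p = 0.139, limma). DDX59 stood at 0.06 to 0.42 over 3 probe sets, none past the threshold.

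Probe sets of the same gene often disagreed in direction. Of the 33 genes with at least 2 tested probe sets, 16 had all on the same side of 0 with hIMP1 Dmut against mock, 18 with hIMP1 wt against mock, 10 between the constructs and 21 between the numbers, of which 19 were all lower on arrays numbered 2. The median range of log2 changes among probe sets of a gene was 0.19, 0.23, 0.21 and 0.35 in the same order of comparisons. DDX31, a nucleolar helicase, and DDX49, a nuclear one, were lower on arrays numbered 2 on all 3 of their probe sets, at -0.15 to -0.49 and -0.18 to -0.46, with none past the threshold. DHX30, of mitochondrial ribosome assembly, and DHX36, which unwinds G-quadruplexes, had probe sets on both sides of 0. The strand read by each probe set was not checked, so transcripts of antisense partners such as DHX9-AS1 cannot be told apart from it by symbol alone.

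**Figure D5:**
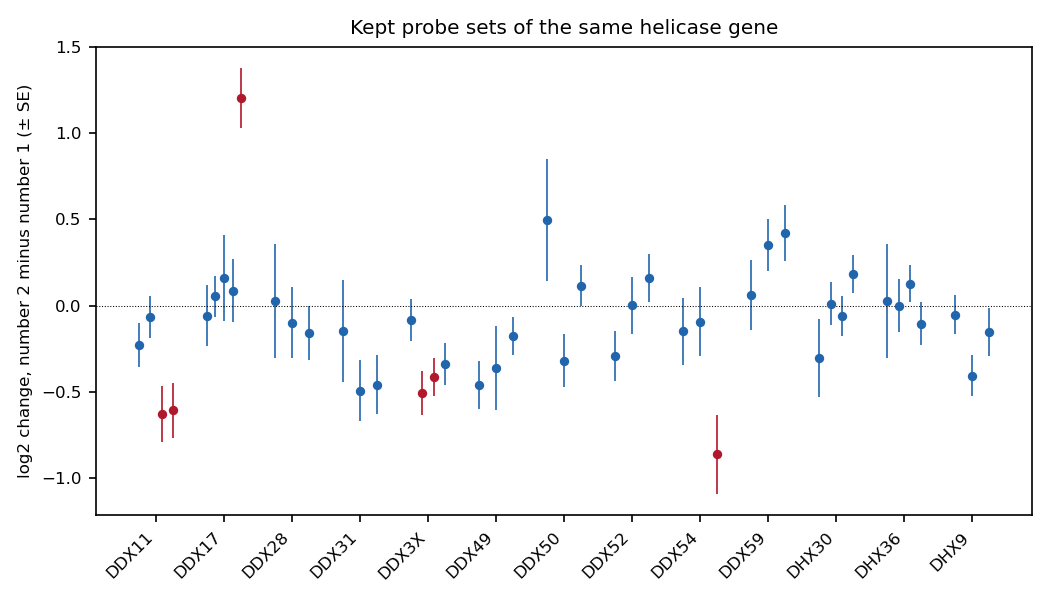
Log2 change of arrays numbered 2 against arrays numbered 1 (± SE) for each tested probe set of the 13 helicase genes that have at least 3, with red marking adjusted p under 0.05. DDX17 has 1 probe set at 1.21 and the other 4 near 0, whereas all DDX31 and DDX49 probe sets lie below 0.

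The other lists of the RNA helicase machinery were set beside these values. RNA helicases whose symbols start otherwise, such as EIF4A1 and UPF1, had 18 of 33 tested probe sets lower on arrays numbered 2, with a median of -0.02 and none past the threshold. Proteins that bind or stimulate DEAD and DEAH box helicases had 56 of 74 lower, with a median of -0.14, and 3 fell while 2 rose. These 5 of 74 are near the share of all tested probe sets past the threshold, 2.9% lower and 2.81% higher. In the comparisons of transfections none of either list passed the adjusted threshold. The differences between these lists and the helicases were not tested.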

How the data were processed

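Total RNA was measured on 6 one-colour Affymetrix arrays. The authors deposited 1 linear intensity for each probe set, and their software and scaling are not stated in the labels used here. The 2% trimmed mean was 149.3 to 149.4 on every array and the median intensity 26.7 to 33.7. Groups came from the sample descriptions and numbers from the titles.

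Values were used as deposited, as log2 of the intensity plus 9.05, the pooled lower quartile, which makes changes of dim probe sets smaller. The 62 control probe sets were left out, and probe sets with a mean log2 at or above the median (5.19) were tested. limma 3.58.1 in R 4.3.3 (lmFit, eBayes with trend) fitted all 6 arrays, with 1 coefficient per group (3 residual degrees of freedom, prior 7.03) or with group and number as additive terms (2 and 10.5). Tests were two-sided, adjusted by Benjamini-Hochberg over 27307 probe sets, at 0.05. Errors with log2 changes are SEs. The fits were tested on simulated data: between the numbers 0%, 62.1% and 99.2% of log2 changes of 0.5, 1 and 2 were recovered, with at most 11.6 false calls a simulation beside 200 changed probe sets. The number of arrays limits the precision.

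The helicases, role groups and lists were chosen with earlier results of these data known. Text names probe sets past the threshold, the 6 highest and lowest genes per comparison, bright genes of each role and genes with 3 or more tested probe sets; others were named after their values were seen, among them DDX50 1568814_at and DDX56 238525_at. Symbols are those of the platform annotation, and all 55 matched the RefSeq table of GRCh38.p14. Alternatives were quantile, median and cyclic loess scaling, other offsets and filters, the replicate block, only the 4 arrays compared, no trend, a robust prior and each array left out.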

Additional observations from a re-analysis of the deposited data

Results flagged for a closer look

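Helicase values that moved in opposite directions in the arrays numbered 2 and those numbered 1 are given here for the helicase medians and for the genes named by rule, the 6 highest and 6 lowest of each comparison by their brightest tested probe set. Other tested helicase probe sets also changed sign between the numbers and are not listed. None of these differences between the numbers was tested, and each side is a single pair of arrays. The helicase median with hIMP1 Dmut relative to mock was -0.059 within number 2 and 0.098 within number 1, and that with hIMP1 Dmut relative to hIMP1 wt was -0.054 and 0.018. With hIMP1 wt relative to mock, DDX59 228385_at stood at -0.064 within number 2 and 0.56 within number 1, and DDX11 208149_x_at at -0.039 and 0.39. With hIMP1 Dmut relative to mock, the pseudogene DDX11L2 223777_at stood at 1.00 within number 2 and -0.11 within number 1.

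Between hIMP1 Dmut and hIMP1 wt, 9 probe sets of the named genes did so, as did most of the 97 tested helicase probe sets. Higher with hIMP1 Dmut within number 2 were DDX54 219111_s_at (0.78, against -0.15 within number 1), DHX9-AS1 215467_x_at (0.70, against -0.0066), DHX34 214017_s_at (0.67, against -0.18), DDX11L2 223777_at (0.54, against -0.030), DDX28 40255_at (0.40, against -0.13) and DDX50 221699_s_at (0.014, against -0.35). Lower within number 2 were DDX39A 201584_s_at (-0.55, against 0.0036 within number 1), DDX1 201241_at (-0.51, against 0.059) and DDX6 225549_at (-0.39, against 0.029).

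The difference of arrays numbered 2 from those numbered 1 also had opposite signs among the transfections for DDX59, DDX39A and DHX32 among the named genes, which was not tested. DDX59 228385_at stood at 0.46 with hIMP1 Dmut and -0.011 with hIMP1 wt, against 0.61 in mock. DDX39A 201584_s_at stood at -0.054 with hIMP1 Dmut and 0.50 with hIMP1 wt, against 0.14 in mock. DHX32 218198_at stood at -0.067 with hIMP1 Dmut and 0.25 with hIMP1 wt, against 0.33 in mock.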

How the results depend on the processing

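No helicase probe set passed the adjusted threshold in a comparison of transfections under any alternative tried, among which the smallest adjusted p for DDX39A with hIMP1 Dmut was 0.887. At an unadjusted p under 0.05, median scaling left 1 of 97 with hIMP1 wt against mock, beside 1.2% of all. The filter at the 75th percentile left 1 of 68 in that comparison, beside 0.395% of all. With hIMP1 Dmut against mock that filter left 1 of 68, beside 0.784% of all. With the replicate block there were 5 of 97 with hIMP1 Dmut against mock, beside 4.15% of all. Between the constructs the block gave 1 of 97, beside 3.19% of all, and the fit without a trend 2 of 97, beside 2.04% of all. Numbers did not pair samples by the labels, and deviations of same-numbered arrays correlated at 0.464 (hIMP1 wt and mock), 0.200 (hIMP1 Dmut and mock) and 0.217 (hIMP1 Dmut and hIMP1 wt), with only 2 numbers. The replicate block gave 0 adjusted calls, like the fit without it. Leaving out each array in turn also moved the number of unadjusted calls. The medians were then -0.10 to 0.11 for hIMP1 Dmut against mock, -0.03 to 0.14 for hIMP1 wt against mock and -0.14 to 0.07 for hIMP1 Dmut against hIMP1 wt. Median scaling put the median between the constructs at -0.15, with that of all probe sets at -0.10.

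Between the numbers, median scaling left 4 adjusted calls (4.12%, against 5.32% of all) and a median of -0.033. It left 17 of 97 unadjusted calls, beside 18.9% of all. No filter left 2 adjusted calls (1.61%, against 1.02% of all) and no trend 0 (against 0% of all). Leaving out arrays gave 2 to 23 adjusted and 20 to 38 unadjusted calls and medians of -0.14 to -0.13. Quantile scaling gave 9 calls (9.28%, against 5.3% of all), of which 7 were among the 12 of the main fit. Cyclic loess gave 8 (8.25%, against 5.51% of all), of which 7 were. Leaving out 1 array turned the sign of DDX59 228385_at (-0.059 to 0.55), DDX11 208149_x_at (-0.048 to 0.40), DDX60 218986_s_at (-0.60 to 0.050), DDX20 223331_s_at (-0.0099 to 0.31) and DHX34 214017_s_at (-0.91 to 0.18) with hIMP1 wt against mock. It did so for DDX11L2 223777_at (-0.13 to 1.03) and DDX6 225549_at (-0.32 to 0.0032) with hIMP1 Dmut against mock. Between the constructs it did so for DDX54 219111_s_at (-0.0060 to 0.64), DHX9-AS1 215467_x_at (-0.11 to 0.81), DHX34 214017_s_at (-0.31 to 0.79), DDX11L2 223777_at (-0.052 to 0.57) and DDX28 40255_at (-0.062 to 0.33). None of these had passed the threshold, and the causes were not tested. Under the alternatives, values for single probe sets were counted together with medians over genes. Of these, 858 kept direction and side of the threshold, 75 lost it, 17 gained it and 12 changed sign. The medians over genes have no threshold and are among the 858, since they stayed within the SD of array medians.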
